A study of Mus musculus with 4 samples.

Results

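Transcription factors and cofactors of the nephric lineage were followed in ovaries of mouse embryos that overexpress Sall1. The set was fixed by name and holds 9 genes, Pax2, Pax8, Lhx1, Gata3, Six2, Eya1, Osr1, Osr2 and Cited1, all of which were found among the 34682 gene symbols of the count table. RNA of developing ovaries was sequenced in 4 libraries at E13.5, when the gonads of both sexes have begun to differ. The libraries divide into 2 of mutant and 2 of wild-type embryos. The mutants carry a BAC, a large genomic insert, in which the Sall1 coding sequence replaces Wt1 and is driven by the Wt1 promoter and regulatory elements. The wild-type libraries received no transgene and no treatment is given for them. Female embryonic stem cells (C57BL/6J or C57BL/6J-129 hybrid) with the integrated BAC were used to make the mutants by morula aggregation, and neither the clone behind each library nor the number of embryos pooled in it is stated. The genetic background is also uncertain, since the count columns of the wild type carry the term B6, the methods name CD1 gonads for RNA-seq and the text speaks of littermates.

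During kidney formation the intermediate mesoderm gives rise to the nephric duct and to the nephrogenic mesenchyme beside it. Pax2, Pax8, Lhx1 and Gata3 act in the duct, and Pax2, Pax8 and Lhx1 act again in forming nephrons. Osr1, Eya1, Six2 and Cited1 mark the mesenchyme whose progenitors build nephrons, a population in which Sall1 is also required. The mesonephros, the transient embryonic kidney, lies against the gonad, and structures derived from it, among them the Pax8-positive rete ovarii, remain attached to the ovary.

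The 4 libraries held between 11036313 and 17869840 counts, with the mutant libraries the shallower. A count of 3, used as the detection floor, equals at most 0.272 CPM, the unit of counts scaled to library size. Sall1 itself had 113 and 96.0 CPM in mutant and 16.2 and 12.6 CPM in wild-type ovaries, which fits the labels (log2 fold change 2.85, standard error 0.16). Wt1, whose elements drive the transgene, had a log2 fold change of 0.03 (standard error 0.10). Defining genes of the ovary were present, with Foxl2, a regulator of ovarian supporting cells, between 28.0 and 46.3 CPM and the germ cell gene Ddx4 between 327 and 393 CPM in every library. Foxl2 had 46.3 and 44.1 CPM in mutant and 28.0 and 32.0 CPM in wild-type ovaries (log2 fold change 0.59, adjusted p = 0.301 in edgeR). The summed level of 8 skeletal muscle markers was 30.8 and 194 CPM in replicate 1 of the mutant and the wild type, against 4.39 and 7.82 CPM in replicate 2. The 6 blood cell markers were likewise highest in the replicate 1 libraries (2868 and 3137 CPM, against 801 and 1547 CPM). In whole ovaries, fewer cells of a type cannot be told apart from less RNA per cell. The table does not say whether libraries of a group come from separate embryos, so the tests measure the spread between these libraries.

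Per unit of transcript length, Cited1 was the most abundant of the 9 genes and Pax2 the least. Levels were set on the RPKM scale (CPM per kilobase of the longest coding transcript), averaged over the 4 libraries. Cited1 had 21.7 ± 7.58 RPKM (SD, n = 4), followed by Pax8 with 4.84 ± 1.63, Osr1 with 2.58 ± 0.577, Osr2 with 2.38 ± 1.11 and Gata3 with 1.89 ± 0.305 RPKM. Lhx1 had 1.26 ± 0.407, Six2 0.787 ± 0.216, Eya1 0.443 ± 0.150 and Pax2 0.205 ± 0.0526 RPKM. The ranges over libraries did not meet between Cited1 and Pax8, between Pax8 and Osr1, or between Eya1 and Pax2. All other neighbours in this order overlapped, from Osr1 through Osr2, Gata3, Lhx1 and Six2 to Eya1. With the length of all annotated exons in place of the longest coding transcript, Pax8 moved from rank 2 to rank 4, behind Osr1 and Osr2.

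**Figure D1:**
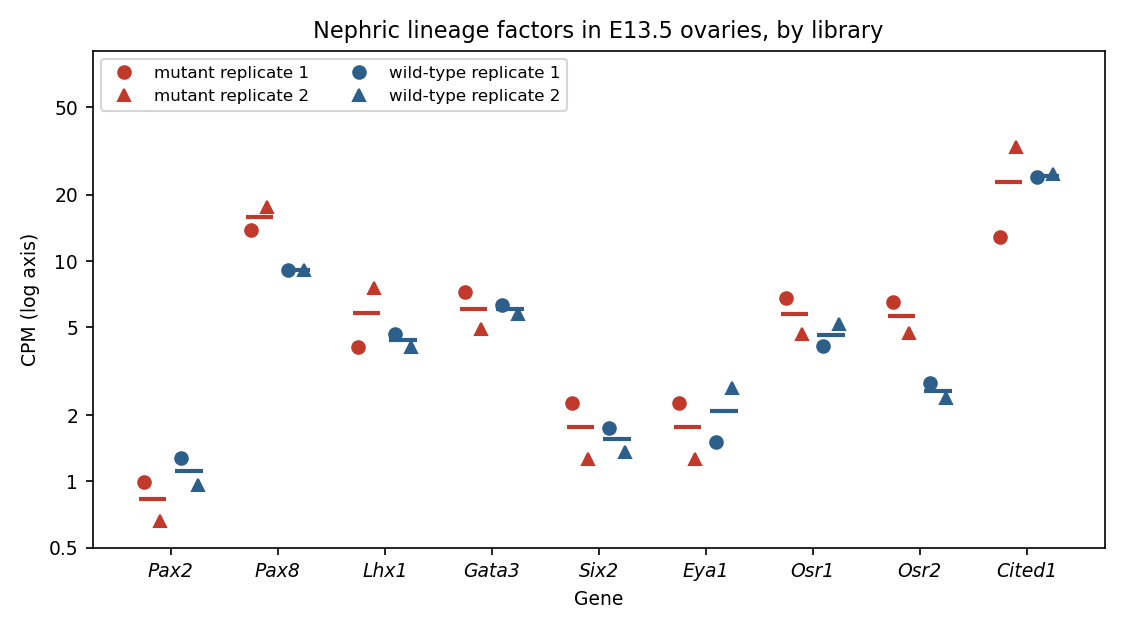
CPM (log axis) of each of the 9 genes in each library, with circles for replicate 1, triangles for replicate 2 and horizontal lines at the group means. For Pax8 and Osr2 both mutant libraries lie above both wild-type libraries, and for Cited1 the mutant libraries lie on either side of the wild type, at 12.8 and 32.9 CPM.

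Between mutant and wild-type ovaries, 0 of the 9 genes passed an adjusted p under 0.05 in edgeR's quasi-likelihood test. Of all 15442 genes tested there, 9 passed (0.0583%). With DESeq2 0 of the 9 passed, against 105 of the 14480 genes that it gave an adjusted p (0.725%). All 9 genes passed the filter on low counts. The number of calls over all genes was 130 without mutant replicate 1, 38 without mutant replicate 2 and 4 without wild-type replicate 2, whereas 0 of the 9 genes passed in any of the 4 fits that each left out 1 library. At an unadjusted p under 0.05, 2 of the 9 genes, Pax8 and Osr2, passed, both higher in the mutant, where the same rule took 5.69% of all genes in either direction and 2.95% in the direction of the mutant. These were also the 2 genes whose mutant libraries both lay above the wild type, against 15.8% of all genes, and 0 genes lay wholly below it, against 15.1%. Of the 9 log2 fold changes 5 were above and 4 below 0, with a median of 0.17, beside a median of -0.00088 over all genes. The median of their sizes regardless of sign was 0.30, against 0.11 over all genes. The estimates of the 9 genes were also less precise. From the estimate to the end of its 95% interval, the median distance was 0.81 for them and 0.37 over all genes. The larger sizes therefore do not show that the 9 genes changed more than other genes. With 2 libraries in each group, exact permutation of the labels can give no gene a p below 0.333.

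**Figure D2:**
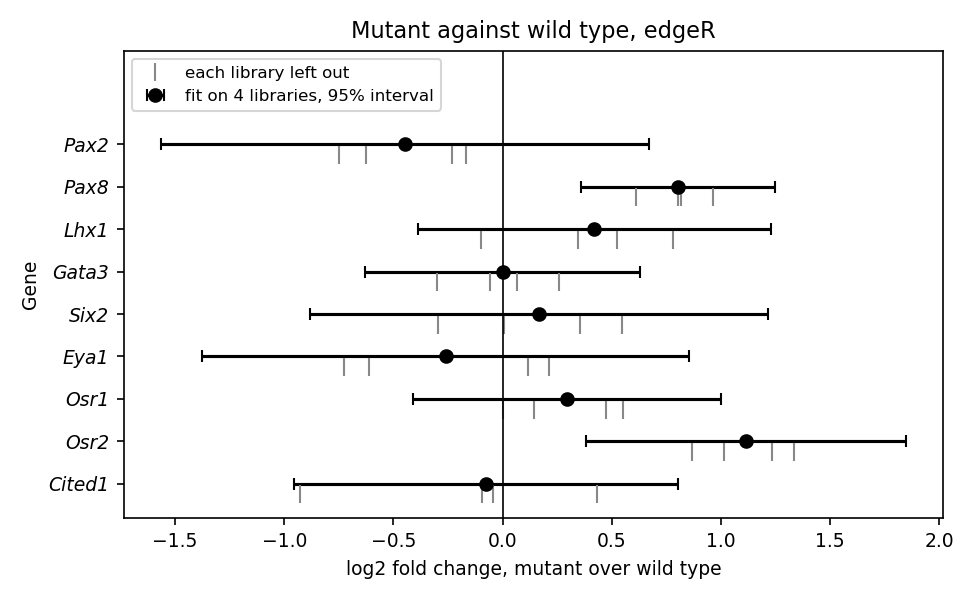
Log2 fold change of mutant over wild type from edgeR, with its 95% interval (black) and the estimates with each library left out (grey ticks). The intervals of Pax8 and Osr2 lie above 0, and those of the other 7 genes include it.

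Pax8, a paired-domain factor needed for nephric lineage specification together with Pax2, maps to chromosome 2 at 24276071 to 24331119, minus strand (NCBIM37, GENCODE M1, as for all gene positions here). It had 13.9 and 17.7 CPM in the mutant libraries and 9.07 CPM in both wild-type libraries, resting on 153, 266, 156 and 160 counts. Both mutant libraries were thus above both wild-type libraries, which agreed closely. The log2 fold change was 0.80 (standard error 0.19, unadjusted p = 0.00382, adjusted p = 0.372 in edgeR), or 1.74-fold with a 95% interval from 1.28 to 2.38 that is not corrected for the number of genes. Its p ranked 158 among the 15442 genes. DESeq2 gave the same size, 0.80, and an adjusted p of 0.361. The lowest estimate with a library left out was 0.61, without mutant replicate 2, and the highest 0.96, without mutant replicate 1 (adjusted p = 0.0692 in edgeR). The annotation places an RNA gene, Gm13415, on the opposite strand within Pax8, and how the counting treated strands is not stated.

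The 250 bases before the Pax8 start are shown because Pax8 is the gene with the smallest p among the 9 (RefSeq, GRCm38.p6, chr2:24475600-24475849, minus strand, written 5′ to 3′ along the gene). The capitals mark the letters CCAAT, those of a common promoter element, which begin 57 bases before the start.
Pax8: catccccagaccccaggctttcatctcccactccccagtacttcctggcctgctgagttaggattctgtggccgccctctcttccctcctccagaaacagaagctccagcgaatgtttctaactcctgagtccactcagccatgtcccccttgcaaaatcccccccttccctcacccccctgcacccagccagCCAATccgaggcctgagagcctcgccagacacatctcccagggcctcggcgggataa
Of the 9 genes, 6 had promoter windows in the sequence table, and Eya1, Osr1 and Osr2 had none there. CCAAT, searched on both strands, occurred in the windows of Pax8, Lhx1 and Six2 and in 1 of 3 Cited1 windows, but in no window of Pax2 or Gata3. Of all 32817 windows of this length 33.8% held it. The A/T-rich hexamer AATATT, a type of sequence that Sall zinc fingers can bind, is its own reverse complement and occurred in 6.17% of all windows. It was present in the Six2 window and in 1 of 3 Pax2 windows, and these letters were not in the Pax8 window. The Six2 window is printed for comparison, with AATATT in capitals, 44 bases before the start (GRCm38.p6, chr17:85688255-85688504, minus strand).
Six2: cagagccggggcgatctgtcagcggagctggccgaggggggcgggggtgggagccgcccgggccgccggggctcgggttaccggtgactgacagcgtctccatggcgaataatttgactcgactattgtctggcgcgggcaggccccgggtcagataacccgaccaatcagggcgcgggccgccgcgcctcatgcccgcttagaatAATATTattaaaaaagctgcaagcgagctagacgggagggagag
The windows of Pax8 and Six2 had a GC content of 60.4% and 64.8%, against a median of 52.4% over all windows.

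Pax2, the partner of Pax8 in the nephric duct, lies on chromosome 19 from 44830539 to 44912758 and had the fewest counts of the 9 genes. It had 0.998 and 0.665 CPM in mutant and 1.28 and 0.963 CPM in wild-type ovaries. The groups overlapped, and the 11 and 10 mutant counts have exact 95% Poisson intervals of 5.49 to 19.7 and 4.80 to 18.4, which cover counting error only. The log2 fold change of -0.45 (standard error 0.47) had a 95% interval from -1.56 to 0.67.

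Lhx1, a LIM homeodomain factor of the duct and of early nephrons, lies on chromosome 11 from 84331479 to 84338923. It had 4.08 and 7.51 CPM in the mutant and 4.65 and 4.08 CPM in the wild-type libraries. Only mutant replicate 2 stood above the wild type, and mutant replicate 1 was level with the lower wild-type library. The log2 fold change was 0.42 (95% interval -0.39 to 1.23) and became -0.097 without mutant replicate 2.

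Gata3, a zinc-finger factor of the nephric duct that is also expressed in sympathetic neurons, lies on chromosome 2 from 9778705 to 9811661. It had 7.26 and 4.92 CPM in mutant and 6.34 and 5.78 CPM in wild-type ovaries, so that the mutant libraries enclosed the wild type. Its log2 fold change was -0.00024 with a 95% interval from -0.63 to 0.63, which bounds a change at 1.55-fold higher and at 0.645 of the wild-type level. The sign turned to 0.26 without mutant replicate 2 and to 0.066 without wild-type replicate 1. Reads of 4930412O13Rik, a gene annotated on the opposite strand within Gata3 and counted between 37 and 55 times per library, may not be separated from it.

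Among the factors of the nephrogenic mesenchyme, Osr2 had the largest difference of the 9 genes. Osr2 is an odd-skipped zinc-finger factor of mesonephric and other mesenchyme and lies on chromosome 15 from 35225853 to 35233059. It had 6.53 and 4.72 CPM in the mutant libraries and 2.79 and 2.38 CPM in the wild-type libraries, from 72, 71, 48 and 42 counts. Both mutant libraries exceeded both wild-type libraries, and the lower mutant library was 4.72 CPM against 2.79 CPM for the higher wild-type library. The log2 fold change was 1.11 (standard error 0.31, unadjusted p = 0.00896, adjusted p = 0.522 in edgeR), or 2.16-fold with a 95% interval from 1.30 to 3.60. Its p ranked 264 of 15442, and DESeq2 gave an adjusted p of 0.817. With each library left out the estimate stayed between 0.87 and 1.33.

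Osr1, the close relative of Osr2 and one of the earliest genes of the intermediate mesoderm, lies on chromosome 12 from 9581248 to 9588305. It had 6.80 and 4.65 CPM in mutant and 4.13 and 5.16 CPM in wild-type ovaries. The groups overlapped, and the log2 fold change of 0.30 (95% interval -0.41 to 1.00) was 0.0015 without mutant replicate 1. Per length, Osr1 had 2.05 and 2.57 RPKM and Osr2 1.62 and 1.38 RPKM in wild-type ovaries, and Osr1 had 3.39 and 2.31 RPKM and Osr2 3.79 and 2.74 RPKM in the mutant. Their order therefore differed between the genotypes in the means, while in the mutant their ranges overlapped. Whether Osr1 and Osr2 differ in their response was not tested.

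Six2, a homeodomain factor that maintains nephron progenitors, lies on chromosome 17 from 86083608 to 86087594 and had between 19 and 30 counts per library. The level was 2.27 and 1.26 CPM in mutant and 1.74 and 1.36 CPM in wild-type ovaries, and the mutant libraries enclosed the wild type. Eya1, a phosphatase that acts with Six2 as a coactivator, lies on chromosome 1 from 14159035 to 14300281. It had 2.27 and 1.26 CPM in mutant and 1.51 and 2.66 CPM in wild-type ovaries, again with overlap. The log2 fold changes were 0.17 (95% interval -0.88 to 1.21) for Six2 and -0.26 (95% interval -1.38 to 0.85) for Eya1 . Both intervals include 0. Without mutant replicate 1 Six2 was at -0.30, and Eya1 was at 0.12 without mutant replicate 2 and at 0.21 without wild-type replicate 2.

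Cited1, a transcriptional cofactor that marks the least differentiated nephron progenitors, lies on the X chromosome from 99442720 to 99447520. It had 12.8 and 32.9 CPM in the mutant libraries against 24.0 and 24.7 CPM in the wild-type libraries, from 141, 495, 413 and 436 counts. The wild-type libraries were nearly equal, whereas mutant replicate 2 was 2.57-fold above mutant replicate 1, a ratio reached or exceeded by 1.06% of all genes tested. The group means were 22.8 ± 14.2 CPM in mutant and 24.4 ± 0.496 CPM in wild-type ovaries (SD, n = 2). The log2 fold change of -0.076 (standard error 0.37) had a 95% interval from -0.96 to 0.80. It was 0.43 without mutant replicate 1 (adjusted p = 0.359 in edgeR) and -0.93 without mutant replicate 2 (adjusted p = 0.0980 in edgeR), so a single mutant library set its direction.

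Seen by family, most of these genes were not the main family member in the E13.5 ovary. Among the Gata factors Gata3, at 1.89 RPKM, stood below Gata4 at 80.9, Gata2 at 25.6 and Gata6 at 25.4 RPKM, of which Gata4 is a factor of gonadal somatic cells. Six2, at 0.787 RPKM, stood below Six5 at 18.3 and Six4 at 5.99 RPKM. Eya1, at 0.443 RPKM, stood below Eya3 at 20.3 RPKM. Lhx1, at 1.26 RPKM, stood below Lhx9 at 29.2 RPKM, a factor required to form the gonad. Pax8 had the highest level of the 9 Pax genes, and Pax6 followed at 0.844 RPKM, while Pax4 had 0 counts in all libraries. Cited1, at 21.7 RPKM, was near Cited2 at 15.7 RPKM, and their ranges over libraries overlapped.

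**Figure D3:**
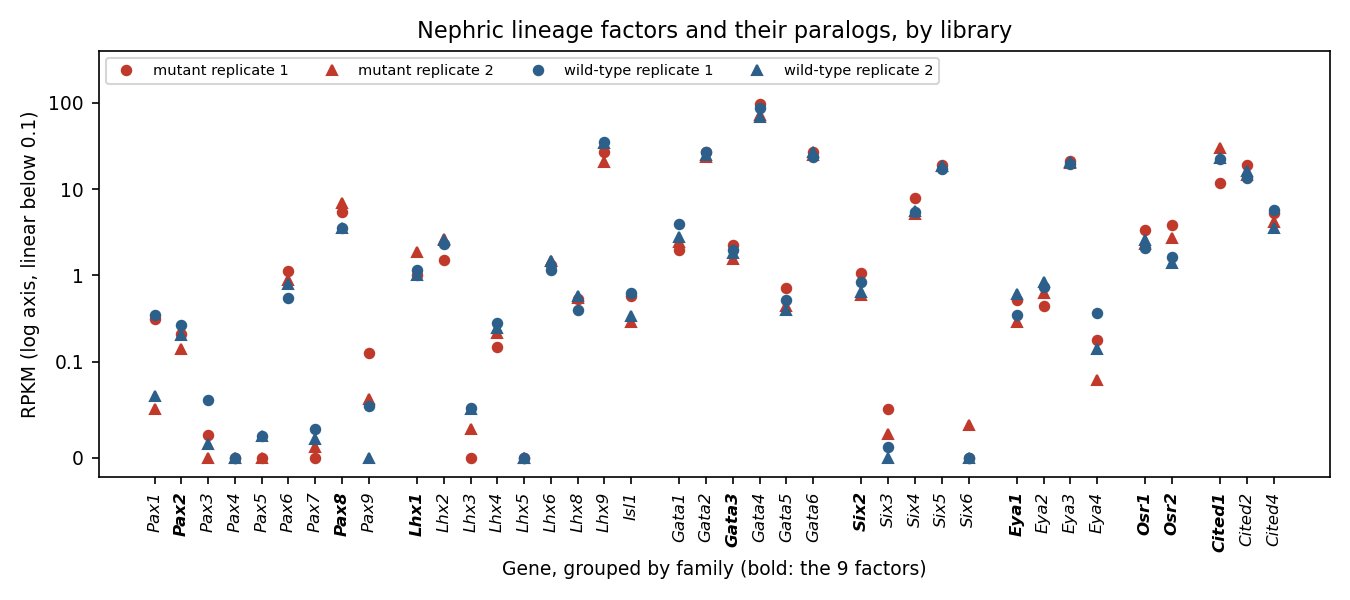
RPKM (log axis, linear below 0.1) of the 9 genes (bold) and paralogs of theirs in each library, grouped by family. For Gata3, Six2, Eya1 and Lhx1 a paralog lies above the gene itself in every library, and Pax8 lies above the other 8 Pax genes in every library.

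Of the 30 paralogs 20 were tested, and 0 passed in edgeR. At an unadjusted p under 0.05 in edgeR 1 passed, where that rule took 5.69% of all genes. With DESeq2 1 passed at an adjusted p under 0.05, against 0.725% of all genes. In both cases the paralog was Lhx9, with 132 and 101 CPM in mutant and 173 and 171 CPM in wild-type ovaries. For Lhx9 DESeq2 gave a log2 fold change of -0.57 with a standard error of 0.15. The adjusted p was 0.0230 in DESeq2 and 0.407 in edgeR. The paralogs' median log2 fold change was 0.029.

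The other genes of kidney development were read from lists for the duct and ureteric bud, nephron progenitors, nephron differentiation and renal stroma. Together with the paralogs these lists hold 110 genes, of which 83 were tested. In edgeR 0 of the 83 genes passed at an adjusted p under 0.05 and 18 passed at an unadjusted p under 0.05, of which 5 were higher and 13 lower in the mutant, where that threshold took 2.95% of all genes as higher and 2.73% as lower. With DESeq2 7 passed, of which 1 was higher and 6 were lower, where the share over all genes was 0.29% higher and 0.435% lower. Log2 fold changes of genes named from the lists are those of DESeq2 where an adjusted p of DESeq2 is given. Without mutant replicate 1 edgeR called 7 of these genes and without mutant replicate 2 it called 2, all lower in the mutant. Their median log2 fold change was -0.021.

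In the list of the nephric duct and ureteric bud, with 17 of 24 genes tested, 1 gene rose with DESeq2 and 0 fell, and the median log2 fold change was -0.00018. The gene was Lgr5, an R-spondin receptor, with 158 ± 8.44 CPM in mutant and 103 ± 8.51 CPM in wild-type ovaries (SD, n = 2, log2 fold change 0.60, standard error 0.13, adjusted p = 0.00186 in DESeq2, 0.176 in edgeR). Its place in this list does not show that duct cells expressed it, since the libraries are of whole ovaries. The highest levels per length in this list belonged to Emx2 (53.9 RPKM), a homeobox gene of the gonad and the duct, Npnt (32.0 RPKM), a ligand of the integrin that holds Itga8, and Lgr5 (27.7 RPKM). At an unadjusted p under 0.05 in edgeR 3 genes of this list passed, all higher in the mutant, where that rule took 2.95% of all genes as higher. Mutant libraries lay wholly above the wild type for 6 genes and wholly below it for 2, against 15.8% and 15.1% of all genes. Beside Lgr5, the genes with an unadjusted p under 0.05 were Wnt11 and Bmp4. Wnt11, a signal of the ureteric tip, had 15.2 ± 3.22 CPM in mutant and 7.98 ± 0.549 CPM in wild-type ovaries (SD, n = 2). The growth factor Bmp4 had 9.74 ± 2.10 against 4.87 ± 0.399 CPM (SD, n = 2). Their edgeR adjusted p values were 0.347 for Wnt11 and 0.428 for Bmp4. The 2 genes wholly below the wild type were Ret and Etv4. Ret had 8.71 and 14.3 CPM in mutant against 15.2 and 17.8 CPM in wild-type ovaries (log2 fold change -0.51 in edgeR). Etv4 had 7.35 and 5.52 CPM against 9.88 and 8.44 CPM (log2 fold change -0.52 in edgeR). Wnt9b, Gdnf and Gfra1, further genes of duct formation, did not pass the filter on low counts.

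In the list of nephron progenitors and cap mesenchyme, 20 of 24 genes were tested and 2 fell with DESeq2, with a median of -0.065. At an unadjusted p under 0.05 in edgeR 5 genes passed, all lower in the mutant, where that rule took 2.73% of all genes as lower. Mutant libraries lay wholly above the wild type for 2 genes and wholly below it for 6, against 15.8% and 15.1% of all genes. Dach1, a cofactor in the network of Six2 and Eya1, had 3.37 ± 1.01 CPM in mutant and 11.4 ± 0.853 CPM in wild-type ovaries (SD, n = 2, log2 fold change -1.77, standard error 0.38, adjusted p = 0.00136 in DESeq2, 0.145 in edgeR). Itga8, an integrin subunit of the metanephric mesenchyme, had 56.0 ± 5.08 and 83.1 ± 4.96 CPM (SD, n = 2, log2 fold change -0.57, adjusted p = 0.0366 in DESeq2, 0.277 in edgeR). Of the genes with a transcript length, Wt1, Phf19 and Mycn had the highest levels per length, at 101, 28.1 and 27.6 RPKM, and did not pass either test. Fgfr1, at 112 to 132 CPM, had no transcript length here and was not ranked.

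Of the nephron differentiation genes 17 of 22 were tested, 0 passed an adjusted p under 0.05 in edgeR or DESeq2, and the median was -0.042. At an unadjusted p under 0.05 in edgeR 2 genes passed as higher and 3 as lower, against 2.95% and 2.73% of all genes. Mutant libraries lay wholly above the wild type for 3 genes and wholly below it for 4, against 15.8% and 15.1% of all genes. Of the genes with a transcript length, Fgfr2, a growth factor receptor, led this list with 49.8 RPKM. Wnt4 with 40.0 and Irx3 with 30.0 RPKM followed, both of which also act in the ovary. Sox4, at 88.5 to 113 CPM, had no transcript length here and was not ranked.

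In the renal stroma list 15 of 16 genes were tested and 3 fell with DESeq2, with a median of -0.20. At an unadjusted p under 0.05 in edgeR 4 genes passed, all lower in the mutant, where that rule took 2.73% of all genes as lower. Mutant libraries lay wholly above the wild type for 3 genes and wholly below it for 6, against 15.8% and 15.1% of all genes. Tcf21, a bHLH factor of stromal progenitors, had 25.7 ± 3.38 CPM in mutant and 54.7 ± 4.19 CPM in wild-type ovaries (SD, n = 2, log2 fold change -1.10, adjusted p = 2.67e-06 in DESeq2, 0.0811 in edgeR). Aldh1a2, which makes retinoic acid, had 69.7 ± 12.9 and 142 ± 6.10 CPM (SD, n = 2, log2 fold change -1.03, adjusted p = 3.01e-08 in DESeq2, 0.106 in edgeR). Pdgfra, a receptor of stromal cells, had 153 ± 20.8 and 225 ± 10.8 CPM (SD, n = 2, log2 fold change -0.56, adjusted p = 0.00669 in DESeq2, 0.301 in edgeR). Dcn and Aldh1a2 were among the genes with the highest levels per length, at 52.8 and 46.7 RPKM. The 6 markers of the gonadal interstitium, which include Tcf21 and Pdgfra, summed to 297 and 236 CPM in mutant and 423 and 387 CPM in wild-type ovaries, and their part in these differences was not tested.

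**Figure D4:**
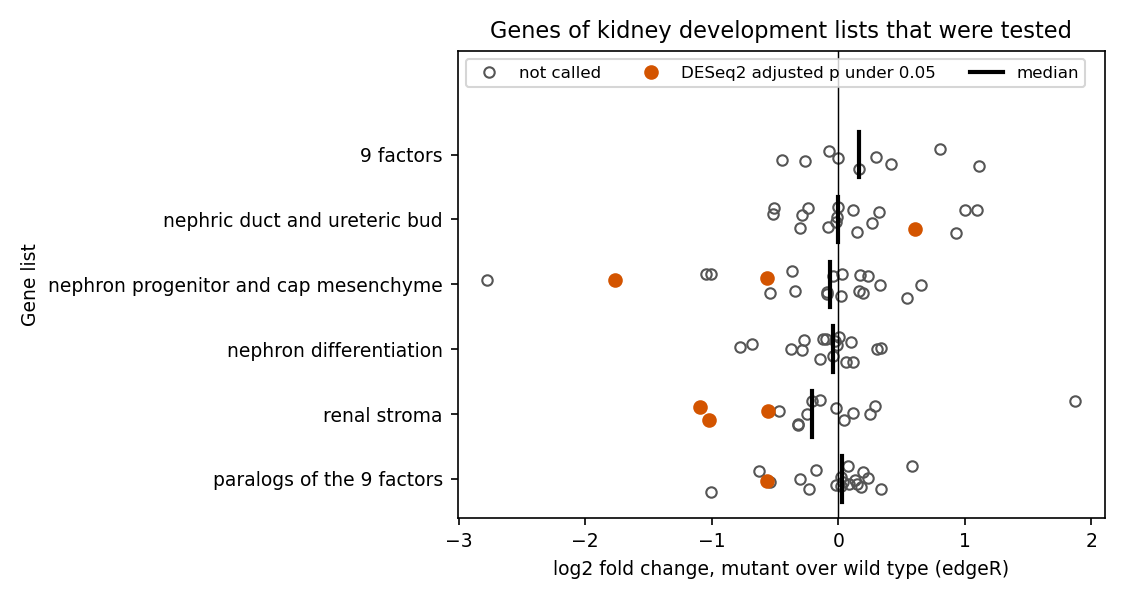
Log2 fold change of mutant over wild type (edgeR) for each tested gene of the 9 factors and of the 5 lists, with vertical lines at the medians and filled points for an adjusted p under 0.05 in DESeq2. The 9 factors hold 0 filled points, 1 filled point lies to the right of 0 in the duct list, and 6 lie to the left.

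Tissue from beside the gonad was followed by marker genes. The 10 markers of the mesonephric duct and tubule summed to 131 and 150 CPM in wild-type ovaries, and both mutant libraries lay within this range. Of these markers 6 were tested and 0 passed in edgeR. Most of this sum came from Krt8 and Epcam, which other epithelia also express. Cdh16, the kidney cadherin of duct and tubule, had 2.18 and 6.38 CPM in mutant and 0.639 and 3.40 CPM in wild-type ovaries, with the higher value in replicate 2 of each genotype. Ret had 8.71 and 14.3 CPM in mutant and 15.2 and 17.8 CPM in wild-type ovaries, and was likewise higher in replicate 2 of each genotype. In mutant replicate 2 Krt8 (48.0 against 65.1 CPM), Cdh6 (4.72 against 8.08 CPM) and Cldn4 (1.26 against 3.99 CPM) were instead lower than in mutant replicate 1. The part of these markers in the levels of the 9 genes was not tested. The 9 markers of the differentiated kidney summed to 837 and 710 CPM in mutant and 722 and 689 CPM in wild-type ovaries, nearly all of it from Podxl (9036 to 12095 counts), which cells outside the kidney also express. Lrp2 had 173 to 312 and Nphs1 7 to 13 counts, Slc12a1, Slc12a3, Aqp2 and Slc34a1 had at most 5 counts in any library, and Umod had 0 in all. The 8 sympathetic markers summed to 14.4 and 7.98 CPM in mutant and 16.1 and 11.2 CPM in wild-type ovaries. Stmn2 (62 to 116 counts), Hand1 (20 to 73), Chga (25 to 49) and Phox2a (8 to 22) were present, and Th and Dbh had at most 10 counts in any library. The part of these cells in the level of Gata3 was not tested.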

How the data were processed

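The authors aligned the reads to mm9 with STAR 2.6.1d and counted them per gene with summarizeOverlaps. The deposited values are these raw counts, unpooled and without normalization. The annotation and strand setting are not given in the sources used here. Every count column was matched to a library by genotype and replicate number, with 0 columns unused and 0 rows naming no gene.

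All 34682 genes were given to edgeR, and DESeq2 took the 22242 genes with a count (R 4.3.3). In edgeR 4.0.16, libraries were scaled by TMM, low genes were removed by filterByExpr (15442 left), and genotypes were compared by the quasi-likelihood F-test with genotype as the only factor and Benjamini-Hochberg adjustment over all genes. DESeq2 1.42.0, the tool of the study, was an alternative with default settings. It gave 14480 genes an adjusted p, and its shares over all genes are of these. CPM and RPKM used TMM-scaled totals, and RPKM the longest coding transcript of GENCODE M1 (NCBIM37, the build named mm9). Standard errors and 95% intervals were obtained by dividing the fold change by the root of F. The scripts were tested on simulated data.

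The 9 genes and the lists were chosen with earlier results of these data known. Named from the lists were genes called by edgeR or DESeq2, the 3 with the highest RPKM per list and the highest paralog of each family. Others (Wnt11, Bmp4, Ret, Etv4, Wnt9b, Gdnf, Gfra1, Fgfr1, Sox4, other paralogs and the single markers) were chosen after their values were seen. Some genes that this rule covers are not reported here. Of 184 list symbols, 0 were unmatched. Alternatives covered the test, normalization, filter, threshold, a replicate block and each library left out. Sequences came from RefSeq windows, cut to the 250 bases before the start.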

Additional observations from a re-analysis of the deposited data

How the results depend on the processing

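Over all genes, 9 calls became 105 with DESeq2, 28 with no filter, 19 with at least 10 counts in every library, 134 with the likelihood ratio test, 118 with DESeq2 with the replicate block and 20 at an adjusted p under 0.1. With each library left out they ranged from 4 to 130. For the 110 list genes, 0 calls became 7 with DESeq2 (7 also when the replicate block was added to it), 2 with no filter, 1 with at least 10 counts in every library and at an adjusted p under 0.1, 8 with the likelihood ratio test, and 0 to 7 with each library left out. For the 9 genes the count stayed at 0 under all of these. The filters also changed which genes were fitted, and leaving out a library changed the number of libraries. The cause of the changes in the number of calls was not tested. The order of levels changed for 3 genes with the length of all exons and for 0 with library totals.

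The replicate numbers are shared between the genotypes, but no label says that they mark a litter or a batch. The count columns carry neighbouring library numbers within each replicate number, and the study speaks of littermate controls without tying them to libraries. Libraries of the same number deviated together from their group means (correlation 0.481 across genes). With 2 libraries in each group both replicate numbers give this same value, so they are not separate observations of it. The replicate block moved the calls over all genes to 385 (2.49%), over the list genes to 13 and over the 9 genes to 2. These were Pax8 (adjusted p = 0.0198) and Osr2 (adjusted p = 0.0445, edgeR), both higher in the mutant. With the block in DESeq2 0 of the 9 passed.

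Directions of the 9 genes kept under every alternative that used all 4 libraries. With each library left out, estimates ranged from -0.097 to 0.78 for Lhx1, -0.30 to 0.26 for Gata3, -0.30 to 0.54 for Six2, -0.72 to 0.21 for Eya1 and -0.93 to 0.43 for Cited1, each crossing 0. Those of Pax2 (-0.75 to -0.17), Pax8, Osr1 and Osr2 did not cross it. A group left with 1 library was assumed to vary like the other. Standard errors of the 9 estimates ran from 0.19 (Pax8) to 0.47 (Pax2 and Eya1).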

Other observations

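The mutant libraries split the 9 genes. In mutant replicate 2, Pax8, Lhx1 and Cited1 were at 1.27, 1.84 and 2.57 times their CPM in mutant replicate 1. The other 6 genes were at 0.557 (Six2 and Eya1) to 0.722 (Osr2) of it, while the median ratio over all genes tested was 0.987 and 52.8% of them were lower in replicate 2. Six2 and Eya1 each had 25 counts in mutant replicate 1 and 19 in mutant replicate 2. The exact 95% Poisson intervals of these counts are 16.2 to 36.9 and 11.4 to 29.7. Pax2 had 11 and 10 counts, so the ratios of Six2, Eya1 and Pax2 are imprecise. In the wild type the ratio of replicate 2 to replicate 1 was 1.00 for Pax8, 0.877 for Lhx1 and 1.03 for Cited1. It was 1.76 for Eya1 and 1.25 for Osr1, on the other side of 1 from their mutant ratios of 0.557 and 0.684, and between 0.753 and 0.912 for Pax2, Gata3, Six2 and Osr2. The genes were grouped here after their values were seen, and the split was not tested.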
